A study of Mus musculus with 80 samples.

Results

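The loss of DNA methylation between 96 and 168 h of 2i was examined in wild-type E14 mouse embryonic stem cells (ESCs), an established feeder-independent line. The E14 cells had been moved from medium with fetal calf serum and LIF to 2i, a serum-free medium with LIF, the MEK inhibitor PD0325901 and the GSK3 inhibitor CHIR99021. Methylation was read by reduced representation bisulfite sequencing (RRBS), in which DNA is cut at CCGG so that CpG-rich fragments are sequenced. There were 2 libraries at 96 h and 2 at 168 h among 80 samples in the series. A call is 1 read of 1 cytosine, and the members were 500-bp autosomal tiles in which each of the 4 libraries had at least 20 calls at 3 or more cytosine positions. This gave 61924 tiles of the 405137 autosomal tiles with a call in any of the 4 libraries. For comparison, the same 2 time points were read in UHRF1 WT and UHRF1 KO (genotype UHRF1-/-, both of E14 background) and in TET WT and TET TKO (genotype TET1/2/3-/-, background C57/129/FVB), all cultured in the same media. The study lists Uhrf1 among its inducible deletions and Tet1/2/3 among the constitutive ones. Floxed lines were recombined with a tamoxifen-inducible Cre shortly before the experiment. The deletions cannot be checked in methylation calls, and RNA of these lines was not analysed here. The labels do not say whether the libraries of a group came from separate cultures, so every p-value given here measures the spread between libraries, which may be technical.

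Methylation of CpGs is copied to newly made DNA by DNMT1, which UHRF1 brings to the replication fork, and new methylation is laid down by DNMT3A and DNMT3B with DNMT3L. TET proteins oxidise methylated cytosine, and bisulfite reads the methyl and the hydroxymethyl form alike. In ESCs, promoters of many germ line genes and one parental copy of imprinted control regions carry methylation, whereas CpG islands of housekeeping and pluripotency genes carry almost none. Passage to 2i is known for a gradual loss of methylation over days.

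The 3 promoters below are those of germ line genes that had 10% methylation or more at 96 h, differed between 96 and 168 h, and had 5 or more CpGs read in the 250 bases before the start. They are shown because the change can be followed CpG by CpG. Sequences are from RefSeq, build GRCm38.p6, 5′ to 3′ on the strand of the gene, and capitals mark the CpGs with 10 or more calls in each of the 4 libraries.
Hormad1 (chr3:95559427-95559676, plus strand): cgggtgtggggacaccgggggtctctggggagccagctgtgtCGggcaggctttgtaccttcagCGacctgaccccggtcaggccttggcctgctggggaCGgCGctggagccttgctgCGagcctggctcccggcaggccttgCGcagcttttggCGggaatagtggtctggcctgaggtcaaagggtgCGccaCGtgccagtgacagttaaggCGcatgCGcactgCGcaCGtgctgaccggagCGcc
Sycp1 (chr3:102936101-102936350, minus strand): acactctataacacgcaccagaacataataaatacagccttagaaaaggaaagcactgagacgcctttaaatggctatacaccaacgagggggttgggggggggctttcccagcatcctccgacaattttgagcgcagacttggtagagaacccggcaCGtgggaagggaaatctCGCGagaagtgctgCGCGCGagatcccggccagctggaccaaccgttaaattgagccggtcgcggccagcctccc
Dmrtb1 (chr4:107683590-107683839, minus strand): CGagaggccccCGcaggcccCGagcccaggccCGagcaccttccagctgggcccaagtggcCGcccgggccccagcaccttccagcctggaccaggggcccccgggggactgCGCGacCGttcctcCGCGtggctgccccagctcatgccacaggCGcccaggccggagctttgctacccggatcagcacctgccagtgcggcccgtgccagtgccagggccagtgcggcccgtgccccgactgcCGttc
The CCGG site at which fragments begin was present 4 times in the sequence of Hormad1, 3 times in Sycp1 and 4 times in Dmrtb1, in 92.8% of the 8590 measured promoters and in 47.1% of all 32851 promoters of this length (both strands are alike, since the site is a palindrome). HORMAD1 is a protein of the meiotic chromosome axis, SYCP1 forms the transverse filaments of the synaptonemal complex, and DMRTB1 is a transcription factor of male germ cells at the entry into meiosis.

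Before the comparisons, the libraries were checked. The 96 h libraries held 16008319 and 16011222 calls, and the 168 h libraries 15793149 and 30654219. Replicate 2 of 168 h stood apart, with 1144221 positions against 1505985 in replicate 1 and 7.45% of its calls methylated against 10.9%. Within the tiles the means of the 2 libraries were close, and the main call counts are also given without this library. At single positions the 2 libraries of 96 h differed by 1.01 times the variance that sampling alone gives, as did those of 48 h (1.01), and those of 168 h by 1.02 times. The median tile had 98, 99, 96 and 184 calls. Calls on 1 read and PCR copies are not independent, so intervals of counting would be too narrow and none is given. ESC identity could be checked in RNA of serum and 72 h of 2i. At 72 h the 6 ESC markers (Pou5f1, Sox2, Nanog, Zfp42, Esrrb and Sall4) had log2 expression values of 5.10 to 8.49. The 6 fibroblast markers lay between -5.54 and 1.53, the highest being Col1a1, and the 5 primitive endoderm markers between -2.55 and 0.22. RNA of 96 and 168 h was not analysed here.

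The first comparison asked how much methylation was lost after 96 h. The mean methylation of the tiles was 26.2% and 26.2% in the 96 h libraries, and 17.1% and 17.4% in the 168 h libraries. Both 168 h values lay below both 96 h values. The mean was thus 26.2% ± 0.0438 at 96 h and 17.2% ± 0.171 at 168 h (SD, n = 2), a change of -8.97 percentage points, so that 65.8% of the 96 h level was left. In pooled calls, which give deep tiles more weight, the change was -3.51 points, and over positions with 5 or more calls it was -4.45. Without replicate 2 of 168 h the change was -9.09 points. The exact two-sided permutation test gave p = 0.333, the smallest value that 2 against 2 libraries allow.

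The upper part of the distribution thinned out. Tiles at 50% or more made up 28.6% and 28.5% of all tiles at 96 h, but 12.9% and 13.5% at 168 h. Tiles at 80% or more numbered 3748 and 3764 at 96 h, and 960 and 970 at 168 h. At the lower end, 48.8% and 48.6% of tiles were below 5% at 96 h, and 55.0% and 54.8% at 168 h. The share between 20 and 50% grew from 13.7% and 13.8% to 20.3% and 19.8%.

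**Figure D1:**
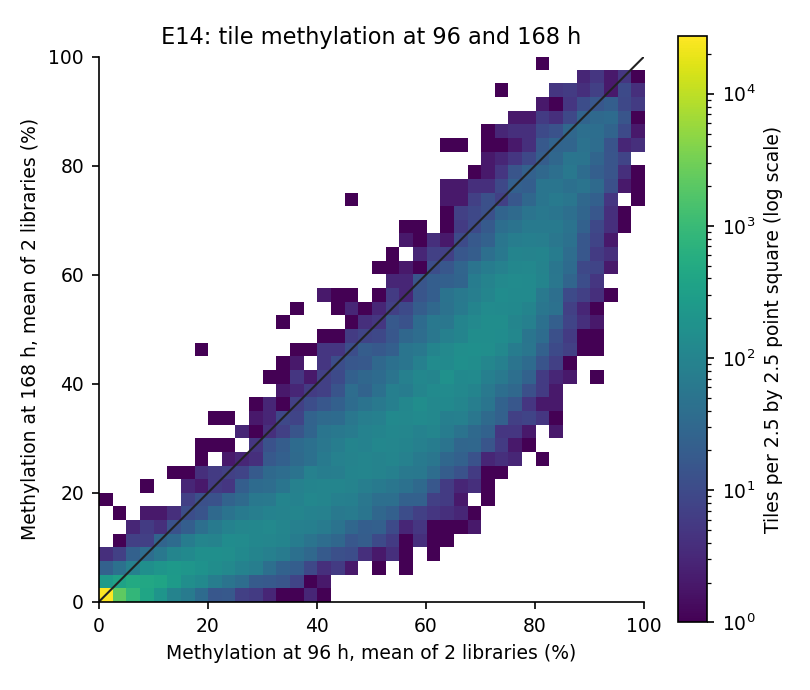
Methylation of each of the 61924 tiles at 96 h (x axis, percent, mean of 2 libraries) and at 168 h (y axis), with the number of tiles per square of 2.5 by 2.5 percentage points in colour on a log scale. The bulk of the partly and highly methylated tiles lies below the diagonal line of equal levels, and the distance to it narrows near the top right corner.

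In a quasi-binomial fit of methylated and unmethylated calls, 11585 tiles fell by 20 percentage points or more with a Benjamini-Hochberg adjusted p under 0.05, which is 18.7% of all tiles, and 1 tile rose (0.00161%). Without a minimum difference, 19428 tiles were lower (31.4%) and 40 were higher, against 4600 and 6 without replicate 2 of 168 h. The called tiles had a median level of 62.1% at 96 h and 33.6% at 168 h, with a median difference of -26.1 points. In 11554 of them both 168 h libraries were below both 96 h libraries, which held for 55.9% of all tiles, while 3.14% of all tiles had both 168 h libraries above. The count leaned on the deep library, since 3999 tiles were called lower without replicate 2 of 168 h and 7997 to 8218 without any other library. With the 96 h libraries, which differed by about the sampling noise, summed as 1 sample, 11259 tiles were lower. A limma test on log ratios of calls found 5207 tiles lower, all of them among the 11585.

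The E14 time course sets this interval beside the earlier ones. On the 55777 tiles that also passed in the other E14 libraries, the mean was 33.1% ± 0.433 in serum and 35.3% ± 0.660 at 24 h (SD, n = 2). By 48 h it was 29.5% ± 0.102 and by 72 h 24.9% ± 0.240. The 96 h mean was 23.8% ± 0.0410 and the 168 h mean 15.5% ± 0.130. The change was -1.08 points from 72 to 96 h and -8.28 points over the 72 h that followed, which is -2.76 points per 24 h. The share kept per 24 h was 83.7% from 24 to 48 h, 84.2% from 48 to 72 h, 95.7% from 72 to 96 h and 86.7% between 96 and 168 h. These intervals share libraries with each other, so the values are set side by side with no test.

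**Figure D2:**
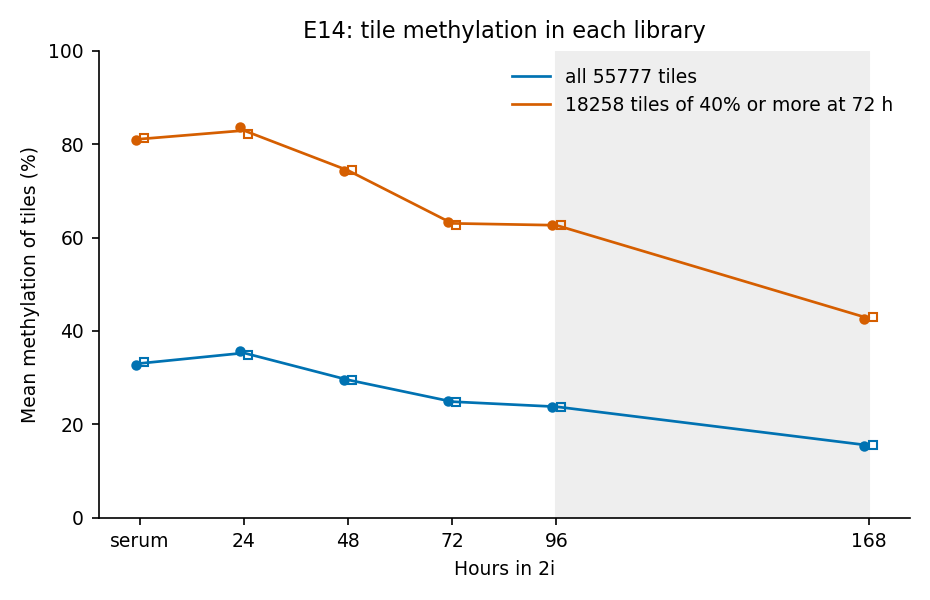
Mean methylation (y axis, percent) in each E14 library against hours in 2i (x axis), for all 55777 tiles that passed in the 12 libraries (blue) and for the 18258 of them at 40% or more at 72 h (orange). Filled circles are replicate 1, open squares replicate 2, lines join the means, and grey marks the interval studied, over which the orange line goes from 62.6% to 42.7%. The 72 h values of the orange line were used to choose its tiles.

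The change was next followed by how methylated a tile had been before the interval. Tiles were sorted by their mean in the 72 h libraries, which are not part of the comparison. In the 5161 tiles of 20 to 40% at 72 h, the level was 26.1% and 25.8% at 96 h and 12.3% and 12.3% at 168 h, so 47.3% was kept. In the 8664 tiles of 40 to 60% it was 50.1% and 50.0%, then 28.7% and 28.9%, with 57.6% kept. In the 10363 tiles of 60 to 80% it was 69.3% and 69.3%, then 48.4% and 49.2%, with 70.4% kept. The 2069 tiles at 80% or more stood at 83.9% and 83.7%, then at 72.6% and 73.4%, with 87.1% kept. From 20% up, the share kept was thus larger with each step of the earlier level, and within every class the gap between the 168 h libraries was under 1 point. In points, the loss was greatest in the middle of the range, with 21.2 at 40 to 60% and 20.5 at 60 to 80% against 10.8 at 80% or more. With tiles sorted by serum level instead, the change was -20.4 points at 60 to 80% and -20.002 at 80% or more, and the share kept at 80% or more exceeded that at 20 to 40% by 25.9 points, against 39.8 with the 72 h classes. Called tiles followed, with 53.5% and 50.1% of the tiles in the middle classes called lower, against 17.9% at 20 to 40% and 14.5% at 80% or more. Without replicate 2 of 168 h these shares were 18.8%, 17.3%, 7.19% and 5.36%, in the same order.

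Single tiles varied widely around these means. In the class of 60 to 80% the share kept had a median of 70.03%, with 51.5% at the 10th and 87.1% at the 90th percentile, a spread that includes the counting error of a tile. Among tiles of 40% or more in serum, those that had lost most by 72 h also kept least afterwards. Where under 50% of the serum level was left at 72 h, 41.2% of the 96 h level was kept to 168 h (1396 tiles). The share was 57.0% where 50 to 70% was left, 68.9% where 70 to 90% was left, and 79.0% where 90% or more was left (3051 tiles). With the 72 h level held at 40 to 60%, the range narrowed to 49.9% (97 tiles) up to 59.0% (720 tiles). In the same order of serum level left, these groups stood at 50.8%, 54.7%, 47.7% and 38.1% at 96 h. They were thus not matched for level at the start of the interval. The number of cytosine positions in a tile, a measure of CpG density, made little difference at a given level. In tiles of 60 to 80% at 72 h, 71.1% was kept with 3 to 4 positions and 69.2% with 17 or more. Over all tiles, however, those with 17 or more positions stood at 1.88% at 96 h and those with 3 to 4 at 50.8%. Among tiles of 40% or more at 72 h, the share kept ran from 65.0% on chromosome 11 to 72.0% on chromosome 3, which also had the higher 96 h mean (65.0% against 60.3%).

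The same interval was read in the other lines, each set against E14 on the tiles it shares with E14. Neither UHRF1 KO nor TET TKO was tested against its own WT line. The TET lines also differ from E14 in background, so the comparison of TET TKO with E14 alone cannot tell genotype and background apart. TET WT has the background of TET TKO and was read at the same 2 times, with 1 library at 168 h. In UHRF1 WT the mean over 35556 shared tiles was 15.97% and 15.9% at 96 h and 10.5% and 10.5% at 168 h. E14 changed by -5.09 points on these tiles and UHRF1 WT by -5.39, a difference of 0.298, which turned to -0.262 in pooled calls. In TET WT the mean over 57507 shared tiles was 19.6% and 19.4% at 96 h and 13.1% in the only 168 h library, a change of -6.44 against -8.62 in E14. As shares of the 96 h level, UHRF1 WT kept 66.2% and TET WT 67.0%, and E14 63.5% and 65.1% on the same tiles. The quasi-binomial line by time term, which works on the logit scale, called no tile at a difference of 20 points in either control line (0%). An unadjusted p under 0.05 in this term was found in 1441 of 35556 tiles for UHRF1 WT and 2951 of 57507 for TET WT. It was found in 5875 of 30242 tiles for UHRF1 KO and 5418 of 43525 for TET TKO. The absence of calls does not show that the control lines acted like E14 at single tiles. The libraries of the control lines are also shallower, with 4067629 to 13147694 calls.

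The change was smaller in TET TKO. On 43525 shared tiles it stood at 19.7% and 19.4% at 96 h and 16.1% and 16.1% at 168 h, a change of -3.47 points against -6.46 in E14, with 82.3% kept against 64.5% in E14. The difference of the changes was -3.00 points, and it was -0.765 with 50 calls per tile and -1.18 in pooled calls. The line by time term called 126 tiles in which E14 fell more by 20 points or more (0.289%) and no tile in which it fell less. The count was 41 without replicate 2 of 168 h, 54 and 69 without replicate 1 or 2 of 96 h, and 128 without replicate 1 of 168 h. UHRF1 KO stood higher at 168 h than at 96 h. Over 30242 shared tiles its mean was 5.85% and 5.78% at 96 h and 7.68% and 7.60% at 168 h, so both 168 h libraries were above both 96 h libraries, while E14 went from 8.90% to 5.74%. The difference of the changes was -4.99 points, and it was -9.82 with 10 calls per tile, -1.24 with 50 and -1.62 in pooled calls. The term called 1700 tiles in which E14 fell more (5.62%) and no tile in which it fell less. It called 932 without replicate 2 of 168 h and 1086 to 1340 without any other E14 library. The UHRF1 KO libraries of 168 h had only 1 call at 50.6% and 49.5% of their positions, and the tiles shared with it had a low E14 mean. Exact permutation of the time labels within each line gave p = 0.0556 for UHRF1 KO, the smallest it can give, and 0.222 after adjustment over the 4 lines. The same exact permutation test gave p = 0.556 for UHRF1 WT, 1 for TET WT and 0.556 for TET TKO. Where both lines fall, this test cannot give a small p, because exchanging the time labels of one line always gives a greater difference. All 4 comparisons share the E14 libraries.

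Sorted by the E14 level at 72 h, the lines differed in the shape of the loss. UHRF1 WT kept 49.3%, 60.9%, 73.8% and 89.0% in the classes of 20 to 40, 40 to 60, 60 to 80 and 80% or more, and TET WT kept 50.8%, 57.5%, 69.7% and 86.2%. TET TKO kept 75.8%, 80.7%, 85.1% and 91.4%, on 96 h levels of 37.9%, 52.2%, 62.9% and 73.2%, where E14 had 25.2%, 48.8%, 69.2% and 84.6% on the same tiles, so the classes are not matched for level. UHRF1 KO stood at 135%, 127%, 122% and 109% of its own 96 h level in these classes, from 96 h levels of 18.99%, 30.1%, 38.5% and 50.04%, where E14 had 23.7%, 47.0%, 68.4% and 85.5%. The control lines were not matched either, with 35.1% in UHRF1 WT against 24.6% in E14 at 20 to 40%, and 37.6% in TET WT against 49.9% at 40 to 60%. No test was made of these classes.

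**Figure D3:**
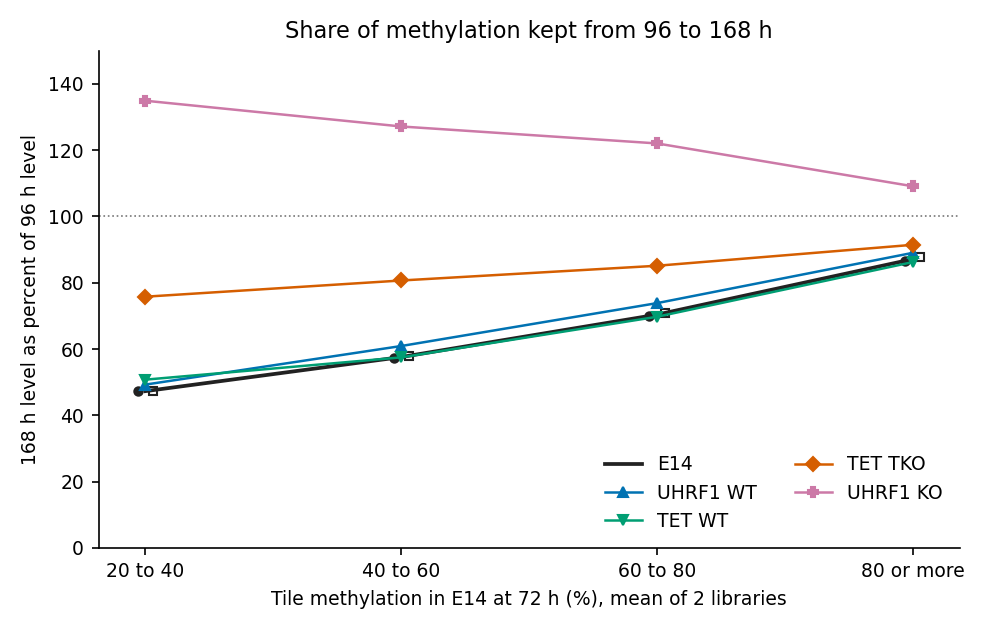
Level at 168 h as percent of the level at 96 h (y axis) for tiles in 4 classes of E14 methylation at 72 h (x axis). E14 is in black with a filled circle for replicate 1 and an open square for replicate 2 of 168 h, and each other line is drawn on the tiles it shares with E14. E14, UHRF1 WT and TET WT climb from near 50% to near 90%, TET TKO lies above them, and UHRF1 KO lies above 100% (dotted line).

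Histone H3 dimethylated at lysine 9 (H3K9me2) is a mark that UHRF1 can bind. H3K9me2 was taken from ChIP followed by bisulfite sequencing of E14 in 2i, which the study describes as long-term 2i cells and for which the labels give no time, by ranking 235816 windows of 10 kb on bound over input calls. The 1470 tiles in the top 10% of windows stood at 60.6% at 96 h and 45.7% at 168 h, and the other 60349 tiles at 25.4% and 16.5%. The changes were -14.9 and -8.83 points, a difference of -6.03 (exact permutation p = 0.333, the smallest possible). As shares, the H3K9me2-rich tiles kept 75.1% and 75.8% in the 168 h libraries and the others 64.7% and 65.7%. Within classes of 72 h level the order in points was the other way round (exact permutation p = 0.333 each, the smallest possible). The changes were -12.4 against -13.7 at 20 to 40%, -17.4 against -21.4 at 40 to 60% and -17.2 against -20.8 at 60 to 80%. In the class of 20 to 40% the 119 H3K9me2-rich tiles kept 64.4% and 63.0% in the 168 h libraries, against 46.7% and 46.8% in the other tiles. In the class of 40 to 60% the H3K9me2-rich tiles kept 67.2% and 68.7% in the 168 h libraries, against 56.9% and 57.3% in the other tiles. In the class of 60 to 80% they kept 75.7% and 76.5% against 69.4% and 70.5%. At 80% or more the shares were 87.2% and 88.1% against 86.6% and 87.6%, under 1 point apart within each library. The 96 h levels of the tiles compared differed too, with 34.3% against 25.7% in the class of 20 to 40% and 54.2% against 49.9% at 40 to 60%. The part of this in the difference was not tested.

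The extremes of the distribution were read at single tiles, chosen for their change, so their values are a description. Coordinates are those of NCBIM37. The steepest fall with 50 or more calls in every library was at chr19:44379501-44380000, with 73.4% and 67.5% at 96 h and 12.1% and 27.6% at 168 h. The tile at chr11:31603001-31603500 went from 52.8% and 59.1% to 12.5% and 8.33%. The nearest promoter placed on this build was that of Gm39673, 12277 bp away. At chr5:33703001-33703500, 17994 bp from the promoter of Uvssa, levels were 77.8% and 79.7%, then 34.6% and 33.3%. The 10 steepest falls lay between -47.0 and -45.0 points, and all 10 tiles had been between 80.05% and 94.7% in serum. None of these 10 overlapped a placed promoter. The only tile called higher was at chr3:14326501-14327000. It had 47.6% and 43.3% at 96 h and 71.8% and 75.8% at 168 h, a difference of 27.8 points (adjusted p = 0.00996) on 30 to 78 calls. In this tile the 72 h libraries had stood at 83.3% and 67.5%, above both 96 h libraries.

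A small set of tiles held its level. Of 3098 tiles with 70% or more at 72 h and 50 calls in every library, 424 (13.7%) stayed at 90% or more of the 96 h mean in both 168 h libraries, and 673 did so in replicate 1 of 168 h. The 5 highest at 168 h stood at 95.2% to 96.9% in the pooled calls, among them chr10:82878001-82878500 (95.7% and 100% at 96 h, 98.4% and 96.4% at 168 h) and chr7:69985001-69985500, 16521 bp from the promoter of A26c2 (90% and 91.8%, then 96.3% and 95.7%). Since the tiles were chosen for this, the other lines give the independent reading. Among tiles of 80% or more at 72 h, the held ones kept 94.4% in UHRF1 WT (159 tiles) and 92.9% in TET WT (296 tiles). The tiles that were not held kept 86.1% (340 tiles) and 84.0% (621 tiles). In TET TKO the shares were 93.8% against 89.5%, and in UHRF1 KO the order was the other way, with 107% against 110%. With replicate 1 of 168 h alone deciding which tiles were held, they were 93.0% against 85.4% in UHRF1 WT, 91.9% against 83.0% in TET WT, 93.3% against 89.0% in TET TKO and 107% against 111% in UHRF1 KO. The held tiles also stood higher at 96 h in these lines, at 87.5% against 80.6% in UHRF1 WT and 81.2% against 72.1% in TET WT. Of the held tiles 6.40% lay in the H3K9me2-rich windows, of those not held 7.68%, and of all tiles 2.38%. A placed promoter overlapped 1 of the held tiles, at Gm52531 (89.5% and 91.4%, then 85.6% and 91.3%), and 24 of those not held.

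Few of the promoters that could be placed were called. RefSeq promoter sequences were placed on NCBIM37 by the spacing of their CpGs. Only sequences with 6 or more CpGs were searched (17846 of 31396 on autosomes), which left CpG-poor promoters out. Of the genes placed, 8590 had a promoter tile among the members. Of these, 100 were called lower (1.16%) and none higher. Without a minimum difference 515 had an adjusted p under 0.05, of which 502 were lower, against 82 and 80 without replicate 2 of 168 h. Without replicate 2 of 168 h, 47 promoters were called lower, and 77 to 82 without any other library. Most of the measured promoters carried little methylation, and 7902 of them were below 5% at 72 h. At a matched level promoters were close to other tiles: 56.2% was kept in the 87 promoters of 40 to 60% at 72 h, and 67.4% in the 81 of 60 to 80%, against 57.6% and 70.4% in all tiles of these classes.

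Among the lists, calls were found in germ line genes. The promoter tile of 20 of 30 genes was measured, and 8 of the 20 fell (40%, beside 1.16% of all promoters), while none rose. Most promoters were too low to fall by 20 points, so the share was also read among those at 20% or more at 72 h, where 8 of 14 germ line promoters and 93 of all 274 promoters (33.9%) fell. The list and its members were chosen with earlier results of these data known, so no test was made of the list. Hormad1 (chr3:95363001-95363500) had 39.4% and 43.3% at 96 h and 13.2% and 14.6% at 168 h, a change of -27.3 points (adjusted p = 4.41e-07). Sycp1 (chr3:102740001-102740500) went from 62.5% and 55.9% to 34.0% and 31.9%, a change of -27.0 points (adjusted p = 2.08e-06). In both genes the groups did not overlap, as in nearly all tiles called lower, and the 168 h libraries lay within 3 points of each other.

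Fkbp6, a co-chaperone of the piRNA pathway, which silences transposons in germ cells, had 53.4% and 55.9% at 96 h and 24.4% and 23.7% at 168 h (adjusted p = 9.46e-05). Asz1, a germ granule protein, had 44.6% and 42.9%, then 18.4% and 21.2% (adjusted p = 0.000750). Tdrd1 and Mael, which also act in the piRNA pathway, started low, and neither reached 20 points. Tdrd1 had 13.8% and 18.6%, then 7.03% and 5.81% (adjusted p = 5.83e-05), and Mael 15.1% and 14.1%, then 6.35% and 7.11% (adjusted p = 0.000526).

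The highest levels among germ line genes were those of Dpep3 and Dazl. Dpep3, a membrane dipeptidase of the testis, had 91.4% and 83.8% at 96 h and 50.8% and 62.1% at 168 h (adjusted p = 0.00123). Its 3 cytosine positions lie 219 to 271 bases after the start. Dazl, an RNA-binding protein that germ cells need, had 83.3% and 82.9%, then 52.2% and 54.7% (adjusted p = 0.000126). Its reads lie at -535 to -509 from the start, in the promoter tile but outside the placed promoter sequence. Tex101, a surface protein of germ cells, had 60.6% and 71.3%, then 39.2% and 46.5% (adjusted p = 0.00616). Slc25a31, the ADP/ATP carrier of the testis, had 35.2% and 41.1%, then 22.6% and 13.98% (adjusted p = 1.80e-05). In all 4 genes both 168 h libraries were below both 96 h libraries, as in 11554 of all 11585 tiles called lower.

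These calls rested on the libraries to different degrees. Asz1, Dazl, Fkbp6, Hormad1 and Sycp1 were called lower with any of the 4 libraries left out. Dpep3 was lost without replicate 1 of 96 h, Slc25a31 without replicate 2 of 96 h or of 168 h, and Tex101 without either of these or without replicate 1 of 168 h, which left 6 or 7 genes each time. By limma 5 genes passed, namely Asz1, Dazl, Dpep3, Fkbp6 and Hormad1, while Sycp1 had an adjusted p of 0.0534. The remaining germ line promoters had low levels. Rpl10l, a retrogene copy of Rpl10 whose reads may be hard to assign, had 16.7% and 28.3%, then 9.09% and 14.9% (adjusted p = 0.206). Smc1b, a cohesin of meiosis whose tile also holds the start of Ribc2, had 19.2% and 11.1%, then 9.23% and 13.9%, which overlap (adjusted p = 0.462). Sycp2 and Sycp3 form the lateral elements of the synaptonemal complex. Sycp2 had 21.7% and 13.1%, then 4.12% and 10.3% (adjusted p = 0.0335). Sycp3 had 12.6% and 12.2%, then 7.14% and 7.19% (adjusted p = 0.116). Ddx4, the germ cell helicase, had 8.27% and 8.24%, then 7.03% and 3.29% (adjusted p = 0.0129). Zpbp2, Tdrkh and Stag3 were below 1% in the pooled calls of both times.

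Within the promoters printed above, the CpGs were followed one by one. These promoters were chosen for a difference between the same libraries, so the counts of CpGs are a description. No share over all CpGs was taken, while 55.9% of all tiles had both 168 h libraries below both 96 h libraries. In Hormad1 the 14 CpGs read stood between 3.33% and 53.3% at 96 h and between 1.75% and 23.1% at 168 h, and 10 of the 14 were lower in both 168 h libraries than in both 96 h libraries. In Sycp1 all 6 CpGs were lower in this sense, the highest going from 85.4% to 52.1% and the lowest from 27.3% to 7.69%. In Dmrtb1, whose tile had 14.6% and 13.0% at 96 h and 5.64% and 6.46% at 168 h (adjusted p = 0.000263), 7 of 12 CpGs were lower in this sense. No CpG of the 3 promoters was higher in both 168 h libraries. The CpGs of Hormad1 nearest to the start lie in the tile next to the one tested.

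**Figure D4:**
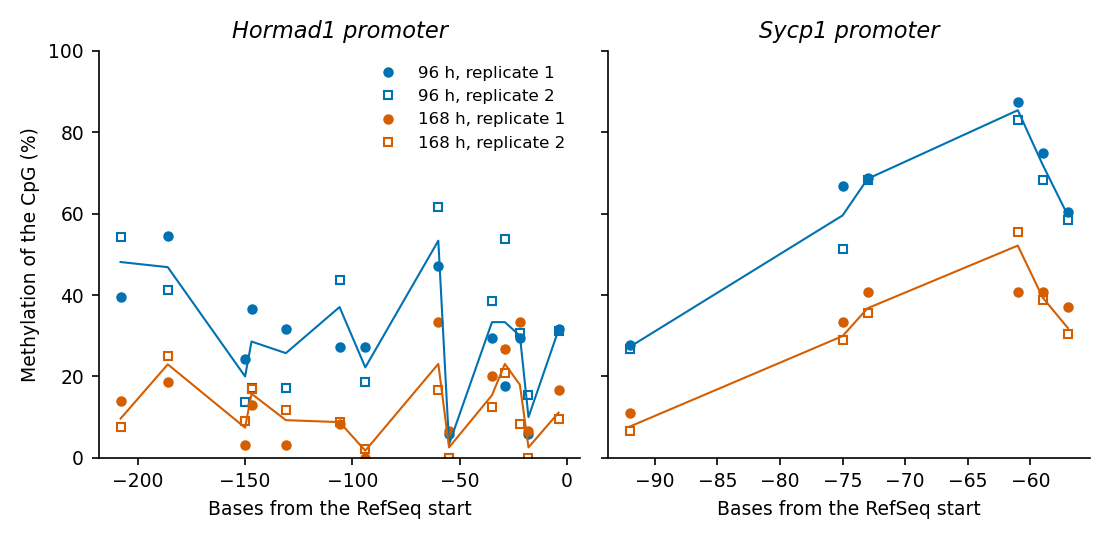
Methylation of single CpGs (y axis, percent) in the promoters of Hormad1 and Sycp1 against bases from the RefSeq start (x axis). Points are libraries (filled circle replicate 1, open square replicate 2, blue 96 h, orange 168 h) and lines join the values of the pooled calls, and the 168 h line runs below the 96 h line at each CpG. At the Hormad1 CpG 55 bases before the start both lines are near 0.

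Imprinted genes were read in the same way. Control regions of imprinted genes carry methylation on one parental copy, which is set in the germ line. Of 33 genes 11 had a promoter tile measured, none was called in either direction (beside 1.16% lower of all promoters). The 4 at 20% or more at 72 h were Peg3, Meg3, Plagl1 and Nnat. Of all promoters from 20% up 33.9% fell, but these are not matched to the 4 for level. Plagl1 and Nnat were at 80% or more at 72 h, where 14.5% of all tiles were called lower. Meg3 was in the class of 20 to 40% (17.9% of all tiles called lower) and Peg3 in that of 40 to 60% (53.5%). Peg3, a paternally expressed zinc finger gene whose tile also holds the start of Usp29, had 47.8% and 36.2% at 96 h and 39.1% and 41.5% at 168 h (adjusted p = 0.909). Meg3, a maternally expressed non-coding RNA, had 36.1% and 38.6%, then 43.2% and 29.0% (adjusted p = 0.656). In both the groups overlap. Plagl1, a transcription factor gene that shares its tile with Hymai, had 82.7% and 82.0%, then 75.9% and 72.2%, a change of -9.04 points (adjusted p = 0.000244) with 89.0% kept, near the 87.1% of all tiles at 80% or more at 72 h. Nnat, which encodes neuronatin, had 93.5% and 82.5%, then 71.2% and 72.8%, a change of -15.2 points (adjusted p = 0.0249), and it was called lower when replicate 2 of 96 h was left out. Peg3 rests on 4 positions 118 to 129 bases after the start, with 46 to 164 calls per library. The other 7 measured genes, among them Igf2r, Grb10 and Gnas, stood below 5% in each of the 4 libraries. Their tiles were also below 5% in each serum library (1.63% and 1.95% for Igf2r), so they were low before 2i. H19, Kcnq1ot1, Snrpn, Mest and Peg10 were among the genes not measured. The difference between imprinted and germ line promoters was not tested.

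**Figure D5:**
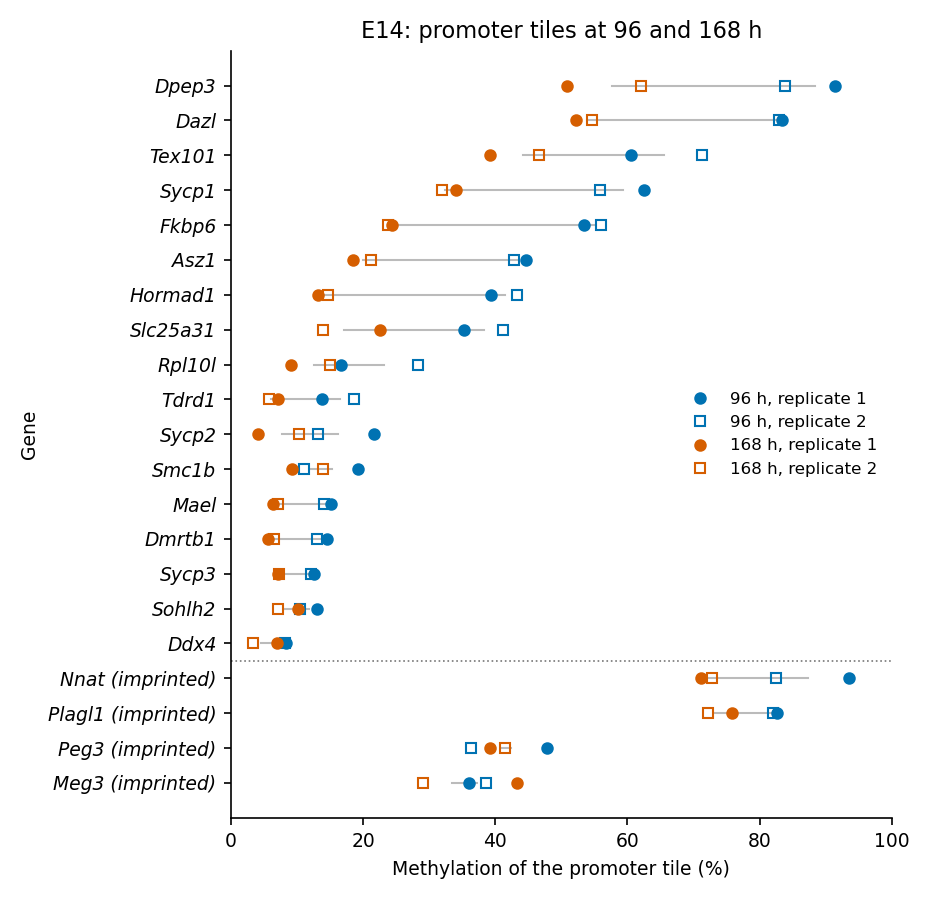
Methylation of the promoter tile (x axis, percent) in each of the 4 libraries for germ line and imprinted genes (y axis) at 8% or more at 96 h. Blue is 96 h and orange 168 h, filled circles are replicate 1 and open squares replicate 2, and grey lines join the values of the pooled calls. The 8 germ line genes from Slc25a31 up show the groups well apart, while those of Peg3 and Meg3 overlap.

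The other lists had almost no methylation. The promoters of 6 of 25 pluripotency genes were measured, with a highest 96 h level of 1.75%, for Otx2, a gene of the formative state. Klf4, Sox2 and Tfcp2l1, transcription factors of the pluripotency network, and Fgf5, a marker of the exit from it, were below 1% in the pooled calls of both times. Among 21 genes for methylation and H3K9 modifiers 15 were measured, with a highest 96 h level of 1.09%, for the H3K9 demethylase gene Kdm4c. Dnmt1, Dnmt3a, Dnmt3b, Uhrf1 and Ehmt1 were below 1% at 96 and 168 h, and the highest pooled value at 168 h was 3.10%, for Tet1, with 7.14% on 56 calls in replicate 1 and 0% in replicate 2. Of 15 housekeeping genes 8 were measured, with none above 1.72% in any library. No member of these 3 lists was called, beside 1.16% of all promoters, so the counts are near the background.

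The steepest falls among promoters outside the lists were named by their size, as a description. Oxgr1, a receptor for oxoglutarate, had 81.0% and 81.8% at 96 h and 37.9% and 29.2% at 168 h on 24 to 58 calls. Il12a, the p35 subunit of interleukin 12, had 60.9% and 57.3%, then 18.9% and 16.7%. Cort, which encodes cortistatin, had 70% and 39.6%, then 16.7% and 7.69%, and Aox4, an aldehyde oxidase, 50.0% and 43.3%, then 16% and 6.67%. The other 6 of the 10 steepest were the non-coding or predicted genes Gm39065, Gm13391, C230079O03Rik, Gm31579, Gm33473 and 6430584L05Rik, with changes of -43.7 to -35.5 points. In all 10 the groups of libraries did not overlap, as in 11554 of all 11585 tiles called lower.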

How the data were processed

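RRBS libraries of E14 and of the UHRF1 and TET lines, ChIP-bisulfite libraries of E14 and RNA-seq of E14 were used. The deposited coverage files hold counts of methylated and unmethylated calls per cytosine on NCBIM37, which the authors made with Trim Galore 0.3.5 and Bismark 0.12.3 with Bowtie2, per the submitters' processing notes. The deposited RNA values are log2 expression by the authors. Percentages here are computed from those counts. RRBS reads start at fixed sites, so PCR copies cannot be removed by position and calls are not independent molecules.

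Calls were summed in tiles of 500 bp with a minimum of 20 calls and 3 positions per library. Each tile was fitted by quasi-binomial logistic regression, with the dispersion moderated by limma 3.58.1 in R 4.3.3 over tiles with 5 or more expected calls of both kinds, an F test and Benjamini-Hochberg adjustment over all tiles. A tile was called at an adjusted p of 0.05 and a pooled difference of 20 points. For means over tiles the libraries were permuted (exact test, two-sided), and lines were compared by permuting time labels within each line. Tested on simulated data of this comparison (61924 tiles), the fit called 16 of 100 tiles changed by -20 points, 74 of 100 changed by -35 points, and 2 of 61724 unchanged tiles. The spread was set at that of the fit. In the real data 31.4% of tiles were lower with no minimum difference, so the adjustment was stricter in the simulation. These rates therefore need not hold for the real comparison.

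RefSeq promoters (250 bases before and 50 after the start, GRCm38.p6) were placed on NCBIM37 by matching the spacing of their CpGs to the positions read, within 8 Mb of the position in the other build and in gene order, with no conversion of coordinates. Only sequences with 6 or more CpGs were searched, 17846 of 31396 on autosomes. Of these 11534 were placed, and of 1776 searched on a wrong chromosome 0 matched. Of the tiles overlapping a promoter, the one with the most overlap among those that passed the minimums was its promoter tile. It may overlap the promoter by few bases, and its reads may lie outside the promoter. Genes sharing a tile cannot be told apart.

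The tiles, the gene lists and the rules for naming were chosen with earlier results of these data known. Named were the called members of the gene lists, up to 4 per list that did not pass with the highest 96 h level, the 10 steepest called promoters outside the lists, the 10 steepest tiles with 50 calls in each library, the tile called higher, and the 5 held tiles highest at 168 h. Other members were named as examples after their values were seen. Depth of the 4 libraries was 15793149 to 30654219 calls. Alternatives were other minimum calls and positions, pooled calls, left-out libraries, a replicate block, limma on log ratios with an offset of 2 calls, other differences, and classes from serum. Chosen after seeing the data were the summed 96 h libraries, a dispersion from all tiles, and the gene lists, the line by time term and the held tiles with E14 libraries left out, and the promoters by 72 h level.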

Additional observations from a re-analysis of the deposited data

Results flagged for a closer look

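The change from 96 to 168 h differed in direction between E14 and UHRF1 KO. Over 30242 shared tiles the mean changed by -3.16 points in E14, with both 168 h libraries below both 96 h libraries, while in UHRF1 KO it went up by 1.82 points, with both above. The difference of the changes was -4.99 points. Exact permutation of the time labels gave p = 0.0556, the smallest value possible, and 0.222 adjusted over the 4 lines compared, so the difference of the means did not pass a threshold of 0.05. Tile by tile, the line by time term called 1700 tiles (5.62%), and 932 without replicate 2 of 168 h in E14. With any of the 8 libraries left out the difference kept its direction (-5.05 to -4.92 points), and it was -9.82 with 10 calls per tile and -1.24 with 50.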

How the results depend on the processing

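The change of the tile mean was negative under all 10 alternatives, from -9.26 points with 10 calls per tile to -3.51 points in pooled calls. It was -4.45 over positions with 5 or more calls and -8.97 with a replicate block (exact permutation p = 0.5). Tiles called lower numbered 6265 with 50 calls in each library, 4882 with 5 positions, 5207 with limma, 19428 with no minimum difference, and 3999 to 8218 with 1 library left out. The first 2 of these tested fewer tiles (44115 and 42100), and the mean change of these tiles was smaller too (-6.64 and -5.80 points). The part of each in the lower counts was not tested. For the others but limma the construction sets the change. For limma the cause was not tested. Tiles called higher numbered 0 with 50 calls, 3 at a difference of 10 points, 40 with no minimum difference, and 0 to 3 with 1 library left out. Same-numbered libraries did not deviate together (correlation 0.00705, 2 pairs). The libraries of a group differed by about the sampling noise, so this value cannot show whether the numbers mark pairs. With the replicate block 11678 tiles were lower and 1 higher, and no direction changed. The share kept at 80% or more exceeded that at 20 to 40% by 39.8 points, and by 25.9 points with classes taken from serum. The difference between E14 and UHRF1 WT reversed from 0.298 to -0.262 points in pooled calls (the cause was not tested). The difference from UHRF1 KO kept its direction under all 12 alternatives (-9.82 to -1.24), and that from TET TKO too (-4.06 to -0.765). Germ line genes called lower numbered 5 with limma and 6 to 7 with 1 library left out, and imprinted genes 0 to 1. No paired analysis was possible for TET WT because it has 1 library at 168 h. With 1 E14 library left out, the line by time term called 932 to 1340 tiles for UHRF1 KO (1700 with all) and 41 to 128 for TET TKO (126 with all). Depth differed between lines, so counts of called tiles are not comparable across them.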

Other observations

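Tiles of chromosome X, which the autosomal tiles leave out, kept more. The 1300 X tiles that passed the same minimums had 24.3% and 24.3% at 96 h and 18.8% and 18.7% at 168 h, so that 77.2% was kept, against 65.8% on autosomes. At a matched 72 h level the X tiles kept 63.5% against 47.3% in the class of 20 to 40%, 69.7% against 57.6% at 40 to 60%, 76.7% against 70.4% at 60 to 80%, and 89.5% against 87.1% at 80% or more. The X classes hold 70 to 117 tiles each. No test was made.

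The input libraries of E14 in 2i, which the study describes as long-term 2i cells, were read at positions that RRBS also covered. In tiles of 40 to 60% at 72 h they had 26.4% and 26.8%, where RRBS of 96 h had 50.1% and 49.5% at the same positions and RRBS of 168 h had 29.0% and 28.7%. In tiles of 60 to 80% they had 44.1% and 44.4%, where RRBS had 70.2% and 70.8% at 96 h and 50.1% and 50.7% at 168 h. The inputs were thus nearer to the 168 h libraries. The input libraries hold few calls per position, with 7435 and 6491 calls in the class of 60 to 80%.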
